A study of Mus musculus with 86 samples.

Results

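N2A is a mouse neuroblastoma line. The measurements described here are the RNA levels in its cell bodies (soma) without and with doxycycline, given to turn off TDP-43 expression. The libraries were chosen by their labels alone: 3 of wild-type N2A soma, without doxycycline, and 3 of TDP-43 knockout N2A soma, with doxycycline, which makes 6 of the 86 libraries in the series. Both groups share the genotype named TetOff TDP-43. In this genotype the endogenous Tardbp alleles were inactivated with CRISPR/Cas9 in a single-cell clone, and a single-copy, HA-tagged TDP-43 transgene with silent mutations and the gene's own 3′ UTR was placed in a loxP cassette under a promoter that doxycycline turns off. Per the labels the knockout cells received 2 µg/mL doxycycline for 48 h, while the methods of the study give 1 µg/mL. Wild-type cells received no doxycycline, so an effect of the drug itself and an effect of losing TDP-43 cannot be told apart. The cells were differentiated by removing serum on membranes with 1 µm pores, the soma was scraped from the upper side, and polyadenylated RNA was sequenced.

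TDP-43, the product of Tardbp, is a mostly nuclear protein that binds GU-rich stretches of RNA. It keeps unannotated (cryptic) exons out of mRNAs, sets the amount of many transcripts and lowers its own mRNA through its 3′ UTR. Its loss from the nucleus is a hallmark of amyotrophic lateral sclerosis and of a form of frontotemporal dementia.

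Wild-type libraries 1, 2 and 3 held 23683507, 23148984 and 25857171 estimated counts, and knockout libraries 1, 2 and 3 held 22726534, 29136016 and 31083911. Levels of a gene are given below as CPM, counts relative to the size of the library, always in the order of the library numbers. Changes are log2 fold changes of knockout over wild type with their standard error (SE), from 3 libraries per group, and a gene is said to rise or fall where edgeR's quasi-likelihood test gave it an adjusted p under 0.05. Tardbp itself (ENSMUSG00000041459, GRCm38 chromosome 4, 148612382 to 148627019, minus strand) was at 611, 686 and 671 CPM in wild type and at 182, 182 and 194 CPM in knockout. All 3 knockout libraries lie far below all 3 wild-type libraries, as the labels state, with a log2 fold change of -1.82 (SE 0.0766, adjusted p = 7.08e-06). The gene count holds reads of the transgene together with reads of the edited alleles, which cannot be told apart in it. The immunoblot of TDP-43 loss after doxycycline that the study shows is of CAD cells.

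The libraries hold RNA of noradrenergic neuroblast and neuron genes, with some defining genes absent. Summed over 9 noradrenergic neuroblast markers, wild-type libraries had 468, 561 and 639 TPM, a level corrected for transcript length, and knockout libraries 765, 788 and 854 TPM, with Phox2a the most abundant. The neuron markers, led by the tubulin gene Tubb3, summed to 704, 815 and 937 TPM in wild type and 811, 842 and 937 TPM in knockout. The groups overlap for the neuron markers and do not overlap for the noradrenergic ones. Of the markers of mature neurons, Nefl had at most 1 count in a library and Rbfox3 at most 6. Markers of other cells were low: the blood list summed to at most 5.76 TPM in a library, with Hbb-bs at 0 throughout, and the list for epithelium and endothelium to at most 5.62 TPM, with Krt18 and Cldn5 at 0. The astroglia and Schwann list summed to 13.7, 16.7 and 16.7 TPM in wild type and 14.3, 10.0 and 9.33 TPM in knockout. Fibroblast markers, led by Pdgfrb, summed to 15.4, 16.1 and 14.9 TPM in wild type and 8.85, 7.55 and 7.83 TPM in knockout, with Col3a1 and Twist1 at 0. The part of these sums in the results below was not tested.

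Knockout soma differed from wild type across a broad set of genes. All 28 mitosis genes tested rose, as did 27 of 28 genes of replication and S phase. Of 27 genes of glycolysis and the hypoxia response 23 fell and 1 rose. Of 17104 genes tested, 2479 were higher in knockout (14.5%) and 1925 were lower (11.3%). Most changes were small, with a median log2 fold change of 0.44 among genes that rose and -0.57 among genes that fell, against -0.05 over all genes tested. Changes past 1 on the log2 scale were more often falls: 526 genes fell and 269 rose that far. Of the 4404 called genes, 4363 had groups that do not overlap, as did 43.8% of all genes tested. In bulk RNA, fewer cells of a kind and less RNA per cell cannot be told apart, and this holds for each gene below. With replicate number as an added term, the replicate block, 3699 genes were higher and 3840 lower. The balance of rises and falls depended on the scaling: 56.3% of called genes were higher here and 46.3% (2187 higher, 2538 lower) with upper-quartile scaling. Without knockout library 2 the counts came to 1199 and 731, without wild-type library 2 to 1391 and 801. The counts were 2127 and 1148 without knockout library 3 and 3684 and 3208 without knockout library 1.

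**Figure D1:**
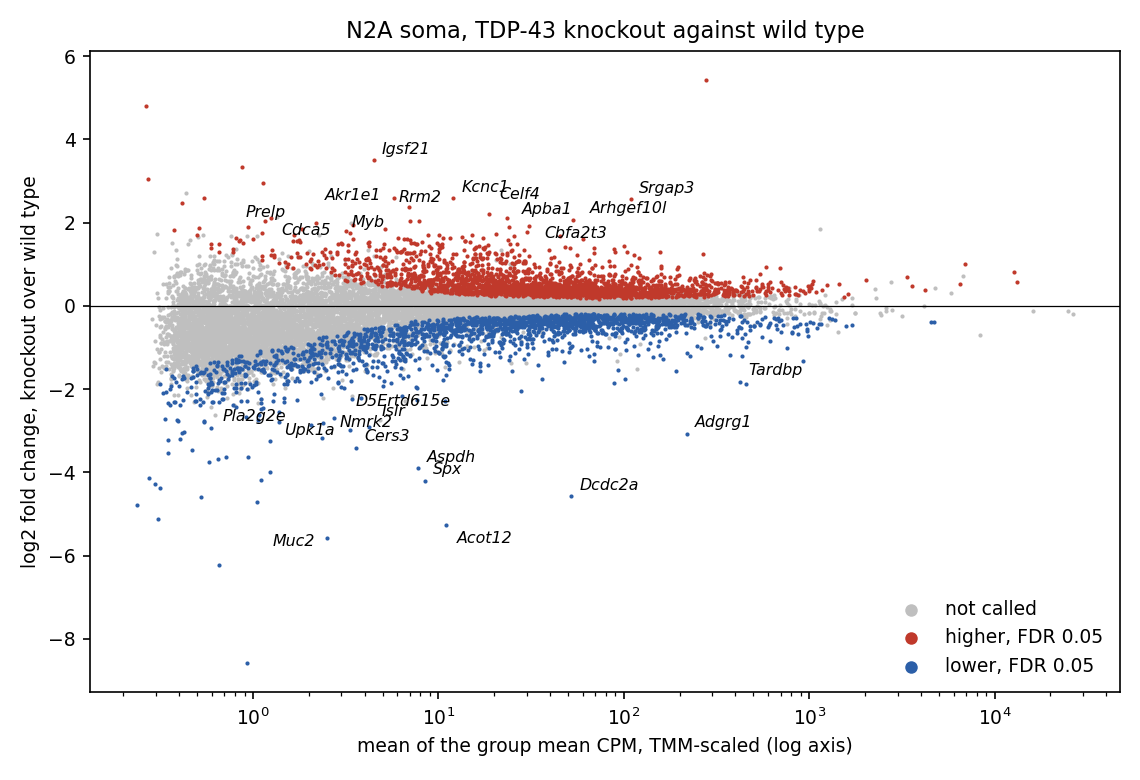
Each point is a gene tested in N2A soma, with the mean of both group means (CPM, log axis) against its log2 fold change of knockout over wild type, in red where called higher (2479), in blue where called lower (1925) and in grey otherwise. Labels mark Tardbp and the 12 largest rises and 12 largest falls named by rule, from Igsf21 at 3.51 to Muc2 at -5.57; unlabelled points beyond them are genes the rule leaves out.

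The libraries also differed within each group. The leading axis of a principal component analysis took 62.4% of the variance and placed wild-type libraries at -63.8, -32.3 and -19.9 and knockout libraries at -7.41, 52.2 and 71.2, so that libraries numbered 1 sit lowest in each group. Long noncoding RNA took 6.51%, 4.64% and 4.09% of counts in wild type and 4.80%, 3.90% and 3.61% in knockout. The groups overlap, and the library numbered 1 is highest in each. Without both libraries numbered 1, a comparison added after the data were seen, 3408 genes were higher and 2847 lower.

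Among called genes with a mean of at least 2 CPM and groups that do not overlap, clone names and pseudogenes left out, the largest rise was of Igsf21 (ENSMUSG00000040972, chromosome 4, 140026846 to 140246784), an immunoglobulin-superfamily adhesion protein of synapses. It was at 0.762, 0.702 and 0.693 CPM in wild type and at 9.14, 8.03 and 7.5 CPM in knockout. Every knockout library lies well above every wild-type library, with an 11.4-fold difference (log2 fold change 3.51, SE 0.189, adjusted p = 1.68e-05). Srgap3 (ENSMUSG00000030257, chromosome 6, 112717971 to 112947266), a RhoGAP that acts in Slit-Robo signalling, was at 32.1, 34.5 and 28.1 CPM in wild type and at 201, 185 and 174 CPM in knockout. The groups stand well apart, and among genes that rose it had the smallest p (log2 fold change 2.56, SE 0.0944, adjusted p = 5.34e-06). Kcnc1 (ENSMUSG00000058975, chromosome 7, 46396497 to 46438704) encodes a voltage-gated potassium channel of fast-firing neurons, and its level was 3.81, 3.86 and 2.58 CPM in wild type and 19.3, 20.4 and 21.8 CPM in knockout. Its groups do not overlap either (log2 fold change 2.59, SE 0.151, adjusted p = 2.12e-05).

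The 12 largest rises also include Apba1, Celf4, Arhgef10l and Cbfa2t3. Apba1, an adaptor protein of presynaptic terminals, was at 8.30, 8.65 and 9.47 CPM in wild type and 35.1, 43.5 and 36.3 CPM in knockout. Celf4, an RNA-binding protein of neurons, was at 5.89, 6.50 and 7.5 CPM in wild type and 28.9, 29.1 and 34.2 CPM in knockout. Arhgef10l, a guanine nucleotide exchange factor, went from 23.2, 16.2 and 21.9 CPM to 84.2, 88.2 and 86.2 CPM. In each of these genes the lowest knockout library is more than 3 times the highest wild-type library, and the log2 fold changes were 2.12 (SE 0.108), 2.21 (SE 0.117) and 2.07 (SE 0.119). The transcriptional corepressor gene Cbfa2t3 was at 11.9, 14.4 and 12.5 CPM in wild type and 48.9, 53.2 and 44.8 CPM in knockout, a log2 fold change of 1.92 without overlap. The rest of the 12 largest rises were of the aldo-keto reductase gene Akr1e1 (2.39), the transcription factor gene Myb (2.04), the ribonucleotide reductase subunit gene Rrm2 (2.03), the extracellular matrix gene Prelp (1.99) and the sister-chromatid cohesion gene Cdca5 (1.95). Ptprr, a tyrosine phosphatase that acts on MAP kinases, was at 22.7, 21.4 and 21.1 CPM in wild type and 71.4, 70.0 and 65.8 CPM in knockout, and Epb41l1, a membrane cytoskeleton protein of neurons, rose by 1.30 on the log2 scale. Knockout libraries of Ptprr all lie above all of wild type, as do those of Epb41l1.

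**Figure D2:**
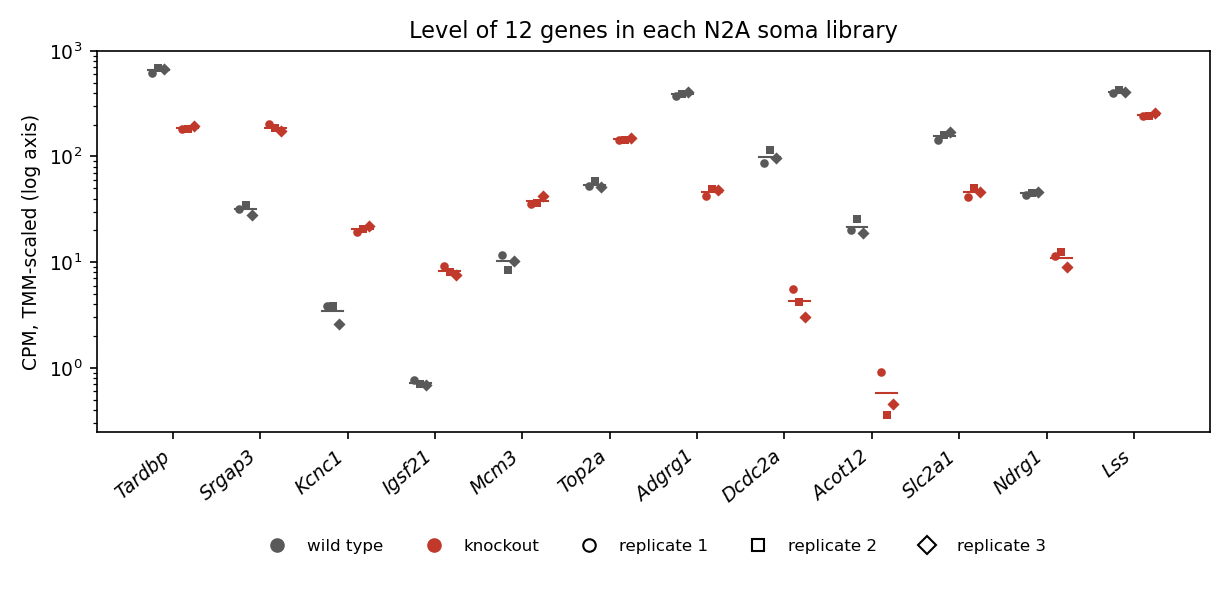
Level of 12 genes in each of the 6 N2A soma libraries (CPM, log axis), wild type in grey and knockout in red, with a symbol for each library number and a line at each group mean. Knockout libraries lie above all wild-type libraries for Srgap3, Kcnc1, Igsf21, Mcm3 and Top2a and below them for the other genes.

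The gene with the smallest p of all was Adgrg1 (ENSMUSG00000031785, chromosome 8, 94974751 to 95014217), an adhesion G protein-coupled receptor with roles in cortical development and myelination. It was at 376, 387 and 409 CPM in wild type and at 42.1, 49.2 and 48.3 CPM in knockout. Wild-type levels were 8.39-fold those in knockout on average, with no overlap (log2 fold change -3.07, SE 0.0852, adjusted p = 8.68e-07). Dcdc2a (ENSMUSG00000035910, chromosome 13, 25056004 to 25210706), a doublecortin-domain protein that binds microtubules, was at 87.6, 116 and 96.2 CPM in wild type and at 5.51, 4.19 and 3.05 CPM in knockout. Its wild-type mean was 23.8 times the knockout mean by the fit, and the groups are far apart (log2 fold change -4.57, SE 0.187, adjusted p = 7.08e-06). Acot12, an acyl-CoA thioesterase, was at 20.01, 25.6 and 18.9 CPM in wild type and at 0.919, 0.358 and 0.459 CPM in knockout. No knockout library comes near wild type, and the log2 fold change was -5.26 (SE 0.257, adjusted p = 1.48e-05). Spx, the gene of the neuropeptide spexin, was at 14.1, 17.9 and 16.0 CPM in wild type and at 1.05, 0.967 and 0.622 CPM in knockout. All knockout libraries lie far under all wild-type libraries (log2 fold change -4.20, SE 0.195, adjusted p = 1.32e-05).

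Muc2, a secreted mucin, had the largest fitted fall of the genes named by rule, -5.57, from 4.85, 6.10 and 3.81 CPM to 0.0875, 0.143 and 0.0655 CPM, but its knockout libraries held only 2, 4 and 2 counts. The size of that fold therefore rests on a handful of counts. The rest of the 12 largest falls were of Aspdh (-3.90), the ceramide synthase gene Cers3 (-3.41), the uroplakin gene Upk1a (-2.99), Islr (-2.91), the secreted phospholipase gene Pla2g2e (-2.86), the nicotinamide riboside kinase gene Nmrk2 (-2.81) and D5Ertd615e (-2.70).

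Cell division genes rose, with 1 exception in the lists below. The share called higher over all genes tested was 14.5%. Of 28 genes tested from a list for mitosis, all 28 rose, with log2 fold changes from 0.65 for Anln, a cytokinesis scaffold, to 1.55 for the kinase gene Aurkb and a median of 1.19. All 28 were called higher in each of the 15 alternative fits. Top2a, the topoisomerase that untangles chromosomes, was at 52.3, 58.4 and 51.6 CPM in wild type and at 144, 142 and 151 CPM in knockout. No library of either group is close to the other group, and the log2 fold change was 1.43 (SE 0.0713, adjusted p = 1.57e-05). The mitotic kinase gene Cdk1 was at 14.6, 13.1 and 13.5 CPM in wild type and 33.7, 32.2 and 34.3 CPM in knockout, and its partner cyclin gene Ccnb1 at 13.5, 15.1 and 13.7 CPM and 34.0, 34.5 and 37.2 CPM. Both rise without overlap, with log2 fold changes of 1.28 and 1.32. The spindle motor gene Kif11 rose by 1.40.

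Genes of DNA replication and S phase rose too: 27 of 28 tested (96.4% against 14.5% over all genes tested), with a median of 1.03. The number that fell was 0 by edgeR, 0 by DESeq2 and 0 at an unadjusted p under 0.05. The exception was Tyms, thymidylate synthase, at 0.20 (adjusted p = 0.260), whose groups overlap. Mcm6, a subunit of the replicative helicase, was at 24.2, 26.7 and 28.4 CPM in wild type and 66.4, 66.1 and 77.8 CPM in knockout. Mcm3, another subunit, was at 11.8, 8.39 and 10.3 CPM in wild type and 35.3, 35.9 and 42.3 CPM in knockout. Both subunits rise clear of their wild-type range, with log2 fold changes of 1.41 and 1.90. The replication licensing gene Cdc6 rose by 1.85. Leaving out any single library gave between 25 and 27 called higher.

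Of 27 genes tested for glycolysis and the hypoxia response, 23 fell (85.2% against 11.3% over all genes tested), with a median of -0.81. The 1 that rose was Pfkm, by 0.24 (adjusted p = 0.0232). Aldoa has 2 annotated genes of that name in this list. Slc2a1, a glucose transporter, was at 142, 159 and 169 CPM in wild type and at 41.5, 50.7 and 46.3 CPM in knockout. Its knockout libraries lie far below its wild-type libraries, and the log2 fold change was -1.76 (SE 0.0951, adjusted p = 1.68e-05). Ndrg1, a gene induced by low oxygen, was at 43.3, 45.6 and 46.0 CPM in wild type and at 11.4, 12.4 and 9.01 CPM in knockout. Its groups do not overlap, with a log2 fold change of -2.04. The prolyl hydroxylase gene P4ha1 fell by 1.56, and the glucose transporter gene Slc2a3 by 1.20, from 567, 618 and 634 CPM to 274, 276 and 241 CPM. Pdk1, the kinase that turns off pyruvate dehydrogenase, fell by 1.75, with knockout library 3 lowest at 9.63 CPM against 20.7 and 20.1 CPM in the others. Without any 1 library, between 19 and 23 of the list fell, and Pfkm lost its call without wild-type library 1, wild-type library 2 or knockout library 2.

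The growth-factor gene Vegfa, also on the list of reported TDP-43 abundance targets, was at 453, 507 and 478 CPM in wild type and 274, 283 and 307 CPM in knockout. It fell without overlap, with a log2 fold change of -0.74 (SE 0.0774, adjusted p = 0.000336).

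Genes of cholesterol synthesis fell in most cases, with 16 of 24 fallen (66.7% against 11.3% over all genes tested) and a median of -0.41. In this list 1 gene, Mvk, rose, by 0.81 (4.17% against 14.5%). Lss, the enzyme that closes the sterol ring, was at 400.0, 423 and 409 CPM in wild type and at 244, 241 and 259 CPM in knockout. Dhcr7 (-0.65) and Tm7sf2 (-0.86), both late-step enzymes, fell as well. Lss groups are apart by a wide margin, at a log2 fold change of -0.73 (SE 0.0675, adjusted p = 0.000192). The list's count at the adjusted threshold varied: without knockout library 2 it was 6, without wild-type library 2 it was 9, and with length-scaled counts it was 10. At an unadjusted p under 0.05, 17 of the list were lower with all libraries and 15 without knockout library 2. Its number of rises was 2 without knockout library 1 or with the replicate block.

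Chaperones of the endoplasmic reticulum and other genes of the unfolded protein response fell in 10 of 21 cases by edgeR, with a median of -0.24. Of this list 0 rose by edgeR, 1 rose by DESeq2 and 2 were higher at an unadjusted p under 0.05. The chaperone gene Hspa5 was at 938, 1005 and 988 CPM in wild type and 595, 613 and 692 CPM in knockout, and Edem1, of the degradation pathway, went down by 0.61 on the log2 scale. Hspa5 groups do not overlap, at a log2 fold change of -0.63. Without knockout library 2, 4 of these genes fell, and without wild-type library 2, 5, while 2 rose without knockout library 1 or with the replicate block. At an unadjusted p under 0.05, 10 of them were lower with all libraries and 10 without knockout library 2. In the integrated stress response list 5 of 28 fell (17.9% against 11.3% over all genes tested, median -0.17), 13 under the replicate block, 12 under upper-quartile scaling, 2 without wild-type or knockout library 2, 11 without knockout library 3, 3 without both libraries numbered 1 and 8 by DESeq2.

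For the lists in this paragraph, the shares over all genes tested were 14.5% higher and 11.3% lower. Of 15 cytosolic heat shock genes 4 rose (median 0.15), 2 without wild-type or knockout library 2 and 7 with the replicate block. Of 26 p53 targets 3 rose and 6 fell (median -0.03). In that list 2 fell without wild-type or knockout library 2 and 3 with length-scaled counts, while 5 rose without knockout library 1 or with the replicate block. Of 21 interferon response genes 2 rose, 1 with length-scaled counts or when a single library other than knockout library 1 was left out, and 3 fell (median -0.14). Among 22 immediate early genes 4 rose and 2 fell (median 0.05), and 9 rose without knockout library 1, 8 with the replicate block and 2 without wild-type library 2. The first of these lists had 0 genes fall by edgeR, 0 by DESeq2 and 0 at an unadjusted p under 0.05, and 1 under upper-quartile scaling.

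The lists of this paragraph stand beside 14.5% higher and 11.3% lower over all genes tested. Of 82 cytosolic ribosomal protein genes 61 rose and 1, Rps18, fell by 0.37, with a median of 0.32 and a range from -0.37 to 0.61. Without knockout library 2 the number that rose was 16, and without wild-type library 2 it was 21. At an unadjusted p under 0.05, 68 of these genes were higher with all libraries and 55 without knockout library 2. Rps18 lost its call without wild-type library 1, wild-type library 2, knockout library 2 or knockout library 3. Proteasome subunits rose in 9 of 31 cases (median 0.23), 26 without knockout library 1 and 22 with the replicate block. Without knockout library 2 the edgeR count was 0, with 13 genes higher at an unadjusted p under 0.05, and DESeq2 on all libraries gave 14. Of 37 genes of mitochondrial translation 14 rose (median 0.24), and that count ran from 2 without wild-type library 2 to 25 without knockout library 1, with 9 under length-scaled counts. The mitochondrially encoded transcripts rose in 5 of 13 cases (median 0.57), 2 without knockout library 2, 8 without knockout library 1, 9 with length-scaled counts and 10 with the replicate block. They took 4.10%, 6.22% and 5.49% of counts in wild type and 6.92%, 8.95% and 7.28% in knockout. Mitochondrial shares are higher in every knockout library than in any of wild type. Of the proteasome, mitochondrial translation and mitochondrially encoded lists, 0 genes fell by edgeR, 0 by DESeq2 and 0 at an unadjusted p under 0.05. Reads shared with nuclear pseudogene copies may bear on the mitochondrial counts, which was not tested.

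**Figure D3:**
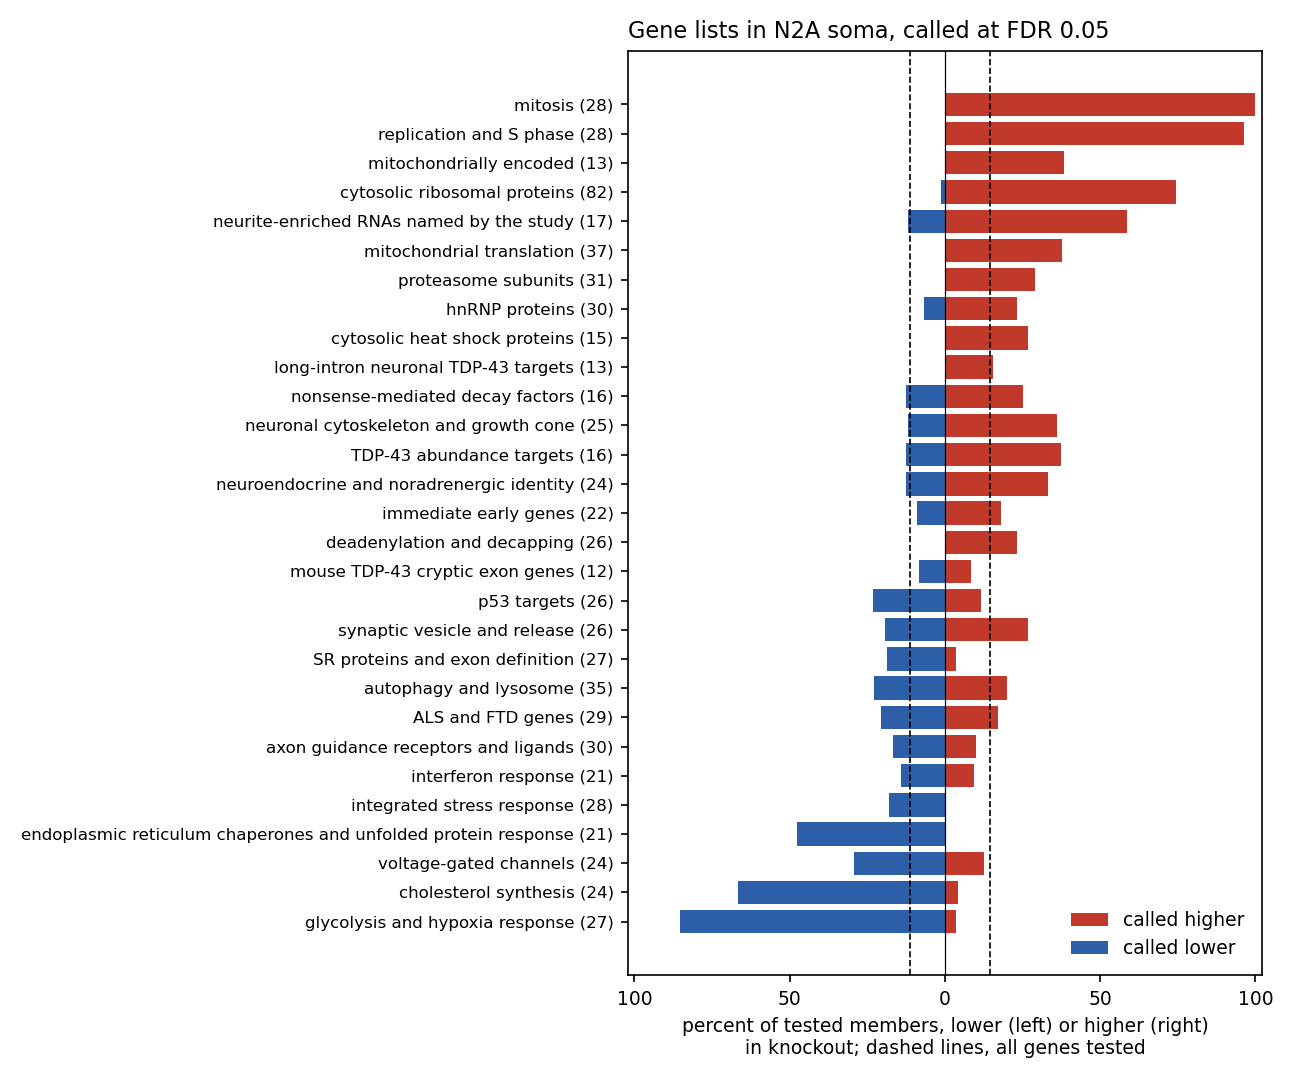
For each gene list, with its number of tested members in parentheses, bars give the percent called higher (right, red) and called lower (left, blue) in knockout N2A soma at FDR 0.05. Dashed lines mark the same over all genes tested, 14.5% and 11.3%, and lists are ordered by median log2 fold change, from mitosis on top to glycolysis and hypoxia response at the bottom.

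Among transcripts reported as TDP-43 abundance targets, 6 of 16 rose (37.5%) and 2 fell (12.5%), against 14.5% and 11.3% over all genes tested, with a median of 0.08, and the number that rose was 3 without wild-type library 2 or without knockout library 2. The number that fell was 4 without knockout library 1 or with the replicate block, and 1 with length-scaled counts or without wild-type library 1, wild-type library 2, knockout library 2 or knockout library 3. Sort1 encodes sortilin, a sorting receptor of the secretory pathway, and was at 151, 149 and 141 CPM in wild type and 222, 236 and 236 CPM in knockout. The knockout libraries lie above all wild-type libraries, with a log2 fold change of 0.65 (SE 0.0656, adjusted p = 0.000274). Grn, which encodes the lysosomal protein progranulin, was at 209, 205 and 223 CPM in wild type and 322, 343 and 393 CPM in knockout. Its groups do not overlap, at a log2 fold change of 0.73. Stmn2, whose human transcript is a known target, had a log2 fold change of -0.06 (adjusted p = 0.590). G3bp1, a stress granule protein, rose by 0.43. Of 12 genes with a cryptic exon reported in mouse cells, Ppfibp1 rose by 0.39 and Tecpr1, an autophagy protein, fell from 36.0, 34.6 and 32.4 CPM to 15.3, 13.6 and 12.8 CPM. Tecpr1 groups do not overlap (log2 fold change -1.31, SE 0.0918, adjusted p = 4.80e-05). Each is 8.33% of that list, whose median was -0.03. Of its genes 4 rose with the replicate block and 3 without knockout library 1 or with length-scaled counts, and 2 fell with the replicate block and 3 with upper-quartile scaling. Of 13 long neuronal genes (median 0.11) Dlg2 (0.39) and Cadm1 (0.34) rose, a share of 15.4%, the former not called with length-scaled counts and the latter not without wild-type or knockout library 2. With all libraries none of them fell by edgeR, by DESeq2 or at an unadjusted p under 0.05, but 1 fell without knockout library 1 and 1 with the replicate block.

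Genes the study names in its work on RNA localization, a list that is not independent of this series, had 10 of 17 genes rise and 2 fall (median 0.25). These are 58.8% and 11.8%, against 14.5% and 11.3% over all genes tested. Without knockout library 2, 6 of the list rose.

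Transcripts of 1 gene can differ where its total does not show it, and the division of reads among them is an estimate by Salmon. Sort1-203 and Sort1-201 are both coding, and the former holds an exon of 99 bases (chromosome 3, 108355472 to 108355570) that the latter lacks. Of the TPM of both together, Sort1-203 took 55.3%, 44.5% and 49.4% in wild type and 80.5%, 78.0% and 76.2% in knockout. Its share is higher in every knockout library than in any of wild type, 49.8% ± 5.39 (SD, n = 3) against 78.3% ± 2.11 (SD, n = 3), with an exact permutation p of 0.1, the smallest that 3 against 3 allows. Sos2-207, a retained-intron transcript of the Ras exchange factor gene Sos2, was at 16.8, 24.5 and 29.8 TPM in wild type and 3.38, 0.470 and 2.34 TPM in knockout. It made up 52.5% ± 4.65 (SD, n = 3) of the TPM of Sos2 with TDP-43 present and 5.92% ± 4.07 (SD, n = 3) without it, without overlap and again at an exact permutation p of 0.1. With length-scaled counts the Sos2 gene total reversed, from 0.55 to -0.23 (adjusted p = 0.144). Within Tardbp, transcript Tardbp-205 was at 112, 150 and 176 TPM in wild type and 9.24, 6.82 and 6.38 TPM in knockout. Tardbp-204 was at 147, 164 and 166 TPM in wild type and 52.7, 46.3 and 56.3 TPM in knockout, which is a smaller drop.

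**Figure D4:**
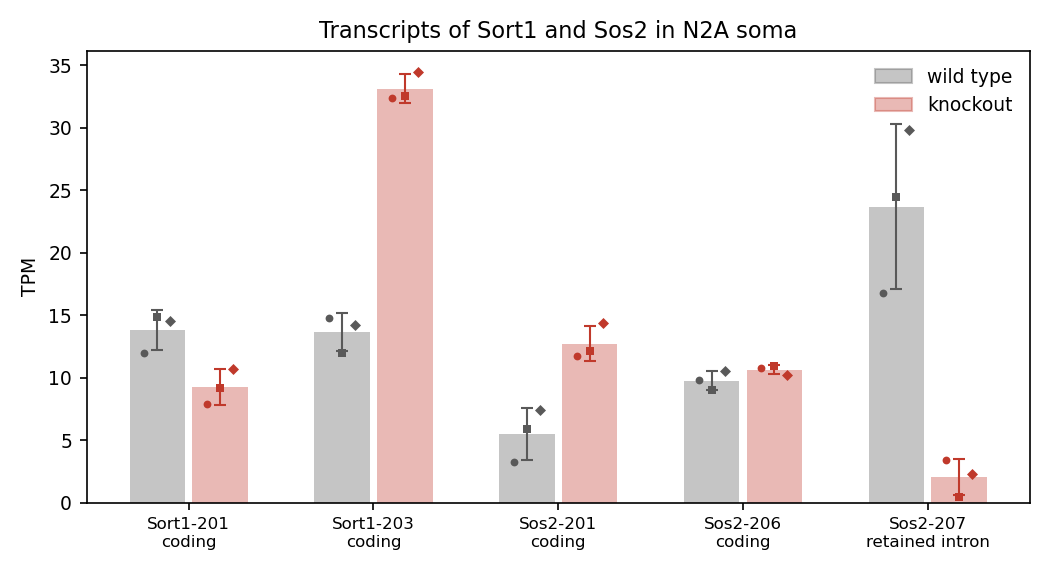
Level of 5 transcripts of Sort1 and Sos2 (TPM) in N2A soma, wild type in grey and knockout in red, with bars at group means, error bars of 1 SD (n = 3) and points for single libraries. Sort1-203 is higher in every knockout library than in any of wild type, and Sos2-207 is lower.

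TDP-43 binds GU-rich RNA, so the motif GTGTG, the motif TGTGT and the motif GTATG were counted on the transcribed strand of 3′ UTRs, overlaps included. The stretches of 30 bases with the most motif bases in the 3′ UTRs of 4 genes that rose or fell are given to show what such a site looks like, 5′ to 3′, with motif bases in capitals, from the transcript sequences of GENCODE vM21.
Grn: gctTGTGTGTGTGTGcgcGTGTGcGTGTGT
Srgap3: aTGTGTacGTATGTGTctgtagGTGTGTGT
Vegfa: TGTGTGTGTGTGTGTGTGTGTGTGTGTGTG
Spx: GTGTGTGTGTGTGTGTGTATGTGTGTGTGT
The Grn site is at bases 278 to 307 of a 337-base UTR with 11 motifs, that of Srgap3 at 387 to 416 of 4817 bases with 22 motifs. The Vegfa site is at 1286 to 1315 of 1865 bases with 54 motifs, and that of Spx at 897 to 926 of 1159 bases with 35 motifs. Of these genes Grn and Srgap3 rose, and Vegfa and Spx fell. These 4 are among the richest in motif bases of the 26 genes searched for such stretches. The annotated 3′ UTRs of Igsf21, Muc2, Aspdh, Islr and Pla2g2e held no motif, and the best stretches of Adgrg1 and Acot12 held 6 motif bases each. A match is a description of letters, not a shown binding site. Over protein-coding genes the median motif number per kb of 3′ UTR was 4.87 in genes that rose, 4.41 in genes that fell and 4.37 in others. With the longest annotated 3′ UTR the difference between genes that fell and others turned from 0.04 to -0.089 per kb. A run of at least 12 TG bases was in 7.78%, 6.78% and 6.32% of them in turn. Genes that fell were longer, with a median span of 29.8 kb against 21.1 kb in genes that rose and 22.8 kb in others, and their 3′ UTRs had a median of 1151 bases against 807 and 1004. The span of genes that rose less that of others was -1.74 kb, and at an FDR of 0.01 it turned to 4.21 kb. The longest intron had medians of 10.2, 6.78 and 8.15 kb in the same order. At an FDR of 0.01 the longest intron of genes that rose less that of others went from -1.37 kb to -0.02 kb, and the same difference of 3′ UTR length from -197 to -96 bases. That of motif density went from 0.503 to 0.866 per kb. Genes are not replicates, and no test was applied to these medians.

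Of the 8 noradrenergic neuroblast markers tested, 6 rose. Of 24 neuroendocrine and noradrenergic genes tested, 8 rose (33.3%) and 3 fell (12.5%), against 14.5% and 11.3% over all genes tested, with a median of 0.07, and 4 rose without knockout library 2. Of the 3 falls none kept its call without wild-type library 2, wild-type library 3 or knockout library 2, while 5 genes fell with the replicate block or upper-quartile scaling and 1 with length-scaled counts. Insm1, a transcription factor of neuroendocrine progenitors, was at 15.0, 15.4 and 16.6 CPM in wild type and 30.4, 35.04 and 41.3 CPM in knockout. All knockout libraries lie above all of wild type, with a log2 fold change of 1.18. Gata2 (0.95), Phox2a (0.92) and Hand2 (0.53, not called without knockout library 2), which specify sympathetic neurons, rose with it, as did the granule protein gene Chgb (0.63). Gata3 (-0.20, adjusted p = 0.130) and Isl1 (0.02), other factors of that kind, did not pass the test, and the granule protein genes Vgf (-0.55), Scg5 (-0.37) and Scg2 (-0.29) fell. Genes of noradrenaline synthesis, Th and Dbh, did not pass the test (-0.15 and -0.01). Of 25 genes of neuronal cytoskeleton and growth cone 9 rose (36%) and 3 fell (12%, median 0.09), 5 rising without wild-type or knockout library 2. No fall in it was called without knockout library 2, and 5 were with upper-quartile scaling.

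Over all genes tested 14.5% rose and 11.3% fell, and the lists here stand beside those shares. Of 26 synaptic vesicle genes 7 rose (26.9%), among them the active zone gene Erc2 (0.92), and 5 fell (19.2%, median -0.03), with a count of 2 fallen without wild-type library 2. Of 24 voltage-gated channel genes 3 rose and 7 fell (median -0.30), 13 falling without knockout library 1 and 14 with the replicate block. Of 30 axon guidance genes 3 rose and 5 fell (median -0.08), 2 falling with length-scaled counts or without wild-type or knockout library 2, and 5 rising by DESeq2.

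For the lists here the shares over all genes tested were 14.5% higher and 11.3% lower. Among lists of RNA processing, 7 of 30 hnRNP genes rose (23.3%) and 2 fell (6.67%, median 0.15). In that list 15 rose without knockout library 1, and 2 without knockout library 2. The number was 12 by DESeq2 or with length-scaled counts and 16 with the replicate block. The falls lost their calls without wild-type library 2, knockout library 2 or knockout library 3. Of 27 genes of SR proteins and exon definition 1 rose (3.7%) and 5 fell (18.5%, median -0.04). The number that fell was 10 with the replicate block, 8 with upper-quartile scaling or length-scaled counts and 3 without wild-type library 2, knockout library 2 or knockout library 3. The number that rose was 4 with length-scaled counts, 3 with the replicate block or by DESeq2 and 2 without knockout library 1, and the rise lost its call without wild-type library 1, wild-type library 3, knockout library 2 or knockout library 3. Of 26 deadenylation and decapping genes 6 rose (23.1%, median 0.02), 1 without wild-type or knockout library 2. At an unadjusted p under 0.05, 7 of them were higher with all libraries and 6 without knockout library 2. Of 16 nonsense-mediated decay factors 4 rose (25%), such as Dhx34 (1.09) and Upf3a (0.67), and 2 fell (12.5%), among them Smg6 (-0.85). The median was 0.10. With the replicate block 7 rose, and 1 fell without wild-type library 1, wild-type library 2, knockout library 2 or knockout library 3. Of 29 ALS and FTD genes 5 rose, such as Ccnf (1.06) and Unc13a (0.53), and 6 fell (median -0.05), which is 17.2% and 20.7% against 14.5% and 11.3% over all genes tested. The falls numbered 2 without wild-type library 2, knockout library 2 or knockout library 3. The rises numbered 9 without knockout library 1, 9 with the replicate block, which also gave 9 falls, and 8 by DESeq2. Of 35 autophagy and lysosome genes 7 rose (20%) and 8 fell (22.9%, median -0.04). Without wild-type library 2 the counts were 2 and 2, with 2 rising without knockout library 2 and 4 falling with length-scaled counts. Grn is on the last 2 of these lists and among the TDP-43 abundance targets.

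By gene class and with the scaling used here, protein-coding genes rose more often than they fell, at 2374 higher (17.7%) and 1600 lower (11.9%) of 13438 tested. Among long noncoding genes 159 were lower (8.85%) and 44 higher (2.45%) of 1797, with a median of -0.55. A class of transcripts awaiting experimental evidence (TEC) had 97 lower (8.63%) and 7 higher (0.623%) of 1124, with a median of -0.92. The share of falls in both is under the 11.3% over all genes tested.

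The same design exists in CAD cells, a mouse neuronal line, and the test of the difference between lines asked where N2A soma changed otherwise. Of 19324 genes tested, the N2A change was higher in 2114 (10.9%) and lower in 1021 (5.28%). These counts varied with the libraries and model used: without replicate 2 in both lines they were 130 and 39, and without replicate 3 they were 605 and 512. With the replicate block they were 3880 and 2380. Of the 12 largest rises in N2A soma 4 differed from CAD, and of the 12 largest falls 6 did. Of each 12, 10 were tested within CAD alone: Igsf21, Prelp, Dcdc2a and Pla2g2e did not pass the count filter there, and for Igsf21 the difference had an SE of 4690. For Dcdc2a the difference of the changes was -3.89, yet CAD libraries held only 3 to 10 counts of it. Tardbp fell less in N2A, by a difference of 0.78 (adjusted p = 0.000194). In 28 mitosis genes the median change was 1.19 in N2A and 1.82 in CAD, and the N2A change was lower in 19 of them. Without replicate 2 edgeR called 0 of these 28, with 7 lower at an unadjusted p under 0.05, and DESeq2 on all libraries called 17. In 28 replication genes the medians were 1.03 and 0.58 and the N2A change was higher in 11, in 3 without replicate 3 and in 1 without replicate 2 (13 at an unadjusted p under 0.05), with 15 by DESeq2 on all libraries. For glycolysis and hypoxia the medians were -0.81 and -0.27, and the N2A change was lower in 14, or in 3 without replicate 2 (13 at an unadjusted p under 0.05).

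Between N2A soma and neurites, 1515 of 17912 genes (8.46%) changed differently, including Tardbp (-0.37, adjusted p = 0.0468) and Adgrg1 (-0.49). Replicate number was not a term in that model, although both fractions are taken from the same membranes. The Tardbp call lies close to the threshold of 0.05.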

How the data were processed

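The authors deposited transcript tables from Salmon, run after trimming with cutadapt, with estimated counts, TPM and effective length. No versions are given. Transcripts were joined to GENCODE vM21 (GRCm38), while the study names Gencode version 17 and mm10: of 135181 transcripts per file 134952 had a gene and 132868 had the same length. Counts were summed to genes and rounded. Genes passed filterByExpr (minimum count 10), were scaled by TMM and tested with edgeR 4.0.16 quasi-likelihood (limma 3.58.1, R 4.3.3), adjusted by Benjamini-Hochberg over all genes tested, at 0.05. DESeq2 1.42.0, python 3.11.15, numpy 2.4.6, pandas 2.3.3, scipy 1.17.1 and matplotlib 3.10.9 were also used. CAD and neurite differences were tested as contrasts in models of 12 libraries. Alternatives were other scalings, filters, length-scaled counts, DESeq2, a 12-library model, a replicate block and leaving out each library. For lists, no set test was run. Same-number libraries deviated in part alike from their group means (correlation across genes 0.581, 0.118 and 0.346 for numbers 1, 2 and 3), so the replicate block is given as well.

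Genes named by rule are Tardbp, the 12 largest rises and 12 largest falls among called genes whose groups do not overlap and whose mean CPM is at least 2 (clone names and pseudogenes left out), the 5 smallest p in each direction, up to 4 called members per list (the most abundant member where none was called) and the 5 largest differences from CAD each way and the genes of the list named by the study; some genes that these rules pick are not reported here. Other genes named, such as Tyms, Anln, Aurkb, Cdc6, Pfkm, Pdk1, Mvk, Gata3, Isl1, Vgf, Scg5, Scg2, Stmn2, Th, Dbh and Rps18, were chosen after their values were seen. The members and lists were chosen with earlier results of these data known. The labels do not say that replicates are separate cultures, so the p-values measure only the spread between these libraries.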

Additional observations from a re-analysis of the deposited data

Results flagged for a closer look

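The results below were picked by rule from genes whose N2A soma change differed from that of CAD soma or of N2A neurites, by edgeR's test of the difference. They cover the genes with the largest differences from CAD, Tardbp and the 12 largest rises and falls, and other genes of the text differ as well, such as Ptprr (1.35) and Ndrg1 (-1.38) from CAD. Groups of 3 were not tested for outlying samples, and no cause was tested.

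The change was higher in N2A than in CAD by 3.14 on the log2 scale for Hgf, 2.88 for Cdh5, 2.34 for P2ry2 and 2.29 for Fam181b. Of these, Cdh5 (-0.50, adjusted p = 0.128) and P2ry2 (0.50, adjusted p = 0.0948) were not called in N2A soma, while Hgf rose by 0.90 and Fam181b by 1.20. Hgf lost its call in 5 of 15 alternative fits: without wild-type library 1, wild-type library 2, knockout library 2, knockout library 3 or both libraries numbered 1. In CAD soma all 4 fell, with log2 fold changes of -2.17 for Hgf, -3.30 for Cdh5, -1.75 for P2ry2 and -1.01 for Fam181b. The N2A change was lower than that of CAD, with differences of -3.89 for Dcdc2a, -3.67 for Muc2, -2.97 for Npas4, -2.73 for Nmrk2 and -2.65 for Otog. CAD libraries had 3 to 10 counts of Dcdc2a, 1 to 12 of Otog, 5 to 20 of Npas4 and, in knockout, 2 to 8 of Cdh5, so those differences rest on low levels in CAD. Among Tardbp and the 12 largest rises and falls, the difference from CAD was also 0.78 for Tardbp, 0.35 for Srgap3, 0.93 for Celf4, 1.20 for Apba1 and 1.65 for Cbfa2t3, and -1.17 for Spx, -2.47 for Aspdh and -1.35 for Islr.

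Against N2A neurites, the soma change in that same set differed by -0.37 for Tardbp, -0.90 for Kcnc1, -1.05 for Spx, -1.61 for Aspdh and -0.49 for Adgrg1. Outside that set larger and positive differences were found as well, such as -4.61 for Ksr2 and 0.89 for Sos2.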

How the results depend on the processing

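Of 152 called genes named by rule, 118 stayed past the threshold in every alternative fit that tested them (15, or 14 for Muc2 and Pla2g2e), 34 lost the call in at least 1, and 1 changed direction: Sos2, at -0.23 with length-scaled counts (adjusted p = 0.144). With the replicate block 3699 genes were higher and 3840 lower. In the difference from CAD the replicate block gave 3880 higher and 2380 lower. At an FDR of 0.01 the soma counts were 1208 higher and 764 lower, and those of the difference from CAD 898 and 440. With length-scaled counts 1190 genes were lower. Leaving out single libraries gave 1199 to 3684 genes higher and 731 to 3208 lower, and leaving out a replicate number gave 130 to 2226 higher and 39 to 1351 lower in the difference from CAD. The cause was not tested. Gene span, higher minus other genes, was -1.74 kb and 4.21 kb at an FDR of 0.01. Motif density, lower minus other genes, was 0.04 per kb and -0.089 per kb with the longest annotated 3′ UTR. Library depth limits what can be said of genes at a few counts, such as Muc2 in knockout.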

Other observations

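Igsf21 and Arhgef10l, both among the largest rises, lie 268 kb apart on chromosome 4, a pair singled out after their values were seen. Gm13029, a gene within the span of Igsf21, had a log2 fold change of -0.78 (adjusted p = 0.130).

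Lars2 varied more within groups than between them, at 2526, 1158 and 653 CPM in wild type and 1426, 983 and 760 CPM in knockout, with a log2 fold change of -0.45 (adjusted p = 0.435).

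Outside the rule for named genes, and chosen after its values were seen, the pseudogene Gm10925 was at 29.95, 0 and 7.54 CPM in wild type and 878, 245 and 507 CPM in knockout, and Syce1 was at 2.00, 2.37 and 1.19 CPM in wild type and at 0 in all 3 knockout libraries.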
